A study of Mus musculus with 6 samples.

Results

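The windows described here are distal stretches of the mouse genome with an intermediate to low DNA methylation level in CD8+ T cells. They are fixed 500-bp windows of GRCm38 (mm10) on the autosomes that lay over 2 kb from every protein-coding transcription start, overlapped no CpG island (CGI), held a minimum of 3 CpGs that each had 10 or more reads in each of the 6 libraries, and had a methylation level of 10 to 50% over the pooled reads of the 6 libraries. Of 88453 windows with enough shared CpGs, 60907 were distal and outside CGIs, and 2767 of these, or 4.54%, had a level of 10 to 50%. The other 58140 distal windows served as the comparison. The level that chose the windows came from the same reads that are reported below, so that the levels themselves are a description.

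Reduced representation bisulfite sequencing (RRBS), which reads methylation at CpGs near MspI cut sites, was carried out on lymph node (LN) CD8+ T cells of C57BL/6N mice aged 13 weeks, which had been purified by magnetic beads. The 6 libraries were 2 from WT mice, 2 from hSTAT5B mice (genotype hSTAT5B +/T) that expressed the unmutated human protein, and 2 from hSTAT5B N642H mice (genotype hSTAT5B N642H +/T) that expressed the human protein with the N642H change. Both transgenes were driven by the Vav1 promoter throughout the hematopoietic system, each of these genotypes was 1 selected transgenic line, and the hSTAT5B N642H mice were diseased when the cells were taken. The labels number the libraries as replicates, and those of the hSTAT5B N642H pair carry the same number with a suffix, so that p-values measure the spread between these libraries, which may be technical for that pair.

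Enhancers are stretches of DNA that bind transcription factors and raise the expression of a gene that can lie far away. In most mammalian cells DNA away from promoters is highly methylated, and regions bound by transcription factors, active enhancers among them, are commonly less methylated. STAT5B is a transcription factor that is activated by cytokine receptors through JAK kinases and binds DNA at a palindromic motif. In a pool of cells, an intermediate level cannot tell a mixture of methylated and unmethylated cells or alleles from partial methylation in every cell.

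No chromatin mark, accessibility or expression was measured in these libraries, and whether the windows act as enhancers was not tested. In 1 place the data went against such a label. Of the 2767 windows, 36 lay in the 5S ribosomal RNA gene cluster (chr8:123538786-123623745), which holds 51 annotated rRNA genes between Gas8 and Rhou, and 27 of the 36 overlapped an annotated rRNA gene. The 36 windows were 41.9% of the 86 distal windows of the cluster, and their mean level was 18.5 and 20.6% in the WT libraries, 21.9 and 18.4% in the hSTAT5B libraries and 20.6 and 19.6% in the hSTAT5B N642H libraries. The copies of this gene are nearly identical, so that the copy a read came from is uncertain. Outside the cluster 2731 windows remained.

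Sequences of 8 windows are given here because their levels carry the genotype differences described below. Each is the plus strand of GRCm38 (RefSeq) around the CpGs measured in all 6 libraries, which are in capitals. The windows in Rgs6, near Zbtb10 and near Impg1 were at higher levels in hSTAT5B N642H than in WT libraries, and the window in Chd7 was lower.
Rgs6, chr12:83004082-83004195: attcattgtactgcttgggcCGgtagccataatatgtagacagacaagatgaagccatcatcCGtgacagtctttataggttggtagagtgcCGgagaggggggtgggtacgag
Zbtb10, chr3:9174390-9174508: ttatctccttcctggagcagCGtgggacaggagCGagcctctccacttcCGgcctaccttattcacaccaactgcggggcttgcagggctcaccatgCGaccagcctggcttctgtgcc
Impg1, chr9:80688363-80688516: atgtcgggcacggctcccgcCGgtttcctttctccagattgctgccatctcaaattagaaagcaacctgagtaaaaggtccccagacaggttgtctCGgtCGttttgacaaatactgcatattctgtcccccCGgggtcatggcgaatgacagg
Chd7, chr4:8834879-8834962: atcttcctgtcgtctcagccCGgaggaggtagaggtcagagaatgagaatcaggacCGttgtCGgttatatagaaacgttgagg
The next 4 lie in or near genes of T cells or of cytokine signaling. Foxp1 and Bcl11b encode transcription factors, Cd247 encodes the zeta chain of the T cell receptor complex, and the window next to Castor1 is close to Osm, which encodes the cytokine oncostatin M.
Foxp1, chr6:99031104-99031291: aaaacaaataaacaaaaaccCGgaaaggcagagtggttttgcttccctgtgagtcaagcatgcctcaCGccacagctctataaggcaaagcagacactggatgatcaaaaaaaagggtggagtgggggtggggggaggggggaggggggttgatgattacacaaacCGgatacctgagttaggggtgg
Bcl11b, chr12:107975735-107975966: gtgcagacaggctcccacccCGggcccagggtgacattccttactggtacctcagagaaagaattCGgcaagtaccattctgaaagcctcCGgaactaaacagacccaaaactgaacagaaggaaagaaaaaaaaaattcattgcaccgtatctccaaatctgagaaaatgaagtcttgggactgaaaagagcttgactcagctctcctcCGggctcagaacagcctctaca
Cd247, chr1:165841160-165841345: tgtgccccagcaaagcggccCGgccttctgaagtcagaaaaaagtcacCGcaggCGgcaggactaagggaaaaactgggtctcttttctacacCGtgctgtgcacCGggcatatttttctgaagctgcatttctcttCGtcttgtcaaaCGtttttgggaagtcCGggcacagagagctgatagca
Castor1, chr11:4223710-4223812: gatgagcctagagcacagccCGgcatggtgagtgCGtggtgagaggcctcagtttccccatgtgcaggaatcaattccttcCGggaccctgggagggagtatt

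The libraries listed 2597893 to 3445555 CpGs each, with 43291086 to 67007186 reads on CpGs. A low-methylated window held a median of 4 shared CpGs, and the median number of reads per window was 116 to 208 by library. Median differences between the replicates of a genotype were 5.91 percentage points in WT, 5.81 in hSTAT5B and 4.96 in hSTAT5B N642H cells, and counting alone gave a median standard error of 5.13, 5.23 and 4.61 percentage points. For the same spread a median of absolute differences is smaller than a standard error, so that these values are not directly comparable. Over the 2767 windows the levels of the libraries were correlated with a Pearson's r of 0.73 for the WT pair, 0.74 for the hSTAT5B pair and 0.80 for the hSTAT5B N642H pair, and of 0.61 to 0.62 between WT and hSTAT5B N642H libraries. These windows were selected on the same levels and share their libraries, and the correlations are descriptions.

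Markers of the cell type differed between libraries. At 10 CpGs near Cd8a, which encodes the alpha chain of the CD8 coreceptor, WT replicate 1 had a mean level of 57.6%. It was 15.6 to 29.8% in the other 5 libraries. At 8 CpGs near Cd8b1 both WT libraries were high, at 44.2 and 45.6%. There hSTAT5B was at 23.9 and 29.4% and hSTAT5B N642H at 13.9 and 14.3%, so that leaving out WT replicate 1 does not remove this difference. Near Cd3g the 6 libraries lay between 23.9 and 25.6%, and near Cd3e and Cd3d between 85.3 and 97.1%. Over the whole list of 5 CD8 T cell genes, with 58 CpGs, the libraries had mean levels of 51.1 and 44.4% (WT), 42.7 and 43.5% (hSTAT5B) and 38.9 and 39.4% (hSTAT5B N642H), and over the B cell list they lay between 38.3 and 39.6%. The part of cells other than CD8+ T cells in the results was not tested, and the results on Bcl11b and on the lists of T cell identity, naive T cell and CD8 effector genes are given with and without WT replicate 1. No low-methylated window lay within 20 kb of Cd8a, Cd8b1, Cd4 or Il2rb.

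Low-methylated windows were a small share of the distal windows. Of the distal windows outside CGIs, 41875 (68.8%) had a level over 90%, 14790 (24.3%) were over 50 and up to 90%, and 1475 (2.42%) were under 10%. The median level was 94.3% over all distal windows and 27.4% over the low-methylated ones. Of the latter, 905 had a level of 10 to 20%, 649 of 20 to 30%, 584 of 30 to 40% and 629 of 40 to 50%.

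**Figure D1:**
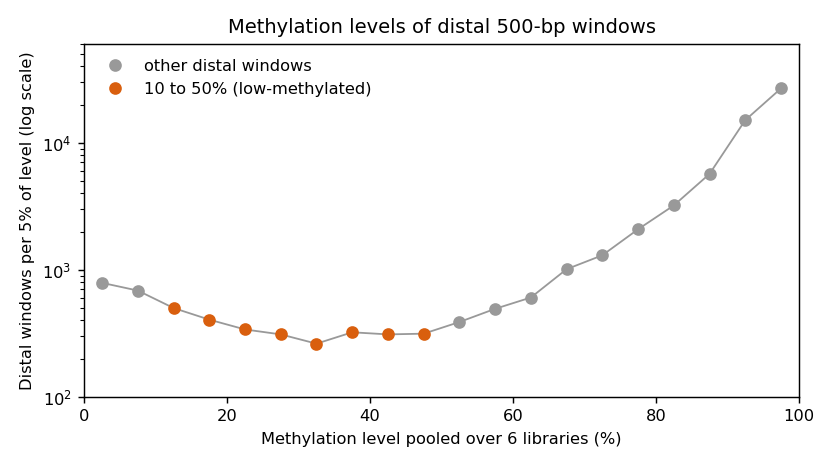
Number of distal 500-bp windows outside CGIs (vertical axis, log scale) in steps of 5% of the methylation level pooled over the 6 libraries (horizontal axis), with the 2767 windows at 10 to 50% in orange. The counts are lowest in the orange range and climb toward 100%, where 41875 windows had a level over 90%.

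The limits of 10 and 50% cut through a continuous range. The windows just inside the lower limit, near Nr2f1 and Aen, had levels of 6.6 to 12.1% and 5.75 to 16.3% in the 6 libraries, and those just outside, in Mical3 and near Muc6, of 5.15 to 14.2% and 6.49 to 13.5%. Just inside the upper limit, a window in Gse1 ranged from 41.1 to 56.0% and a window in Fyn from 30.9 to 97.6%, and just outside it windows in Trpm1 and near Myrfl ranged from 44.1 to 56.3% and from 46.2 to 59.9%.

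The CpGs of a low-methylated window often differed among themselves. The median range of CpG levels within a window was 26.5 percentage points, and it was 8.42 in the other distal windows. In 339 windows (12.3%) at least 1 CpG was under 10% while another was over 50%, and in 827 (29.9%) every CpG was between 10 and 50%. The 6 libraries were within 10 percentage points of each other in 507 windows (18.3%), beside 77.7% of the other distal windows. Counting error at a given depth is larger at intermediate levels than near 0 or 100%, and its part in this difference was not tested.

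Most of the 2767 windows stood alone. They formed 2662 separate stretches, 2561 of which were a single window, and the longest stretch had 3 windows. Of the windows, 1215 (43.9%) lay in a protein-coding gene, beside 43.2% of the other distal windows, and 933 genes held at least 1. A protein-coding exon was overlapped by 11.5%, beside 13.7%. Other annotated genes were overlapped by 16.4%, beside 11%, and most of these were lncRNA genes, with 374 windows (13.5%) beside 8.28% of the other distal windows.

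They lay closer to starts and to CGIs than the other distal windows did, although the rule kept both at a distance. The median distance to the nearest protein-coding start was 23282 bp, and it was 40331 bp in the other distal windows. The median distance to the nearest CGI was 24533 bp and 64935 bp, respectively, and 344 low-methylated windows (12.4%) were within 2 kb of a CGI, beside 2.49%. Starts of annotated transcripts of any kind were within 2 kb of 551 windows (19.9%), beside 12.0%, so that some windows may be promoters of other transcripts. Repeats covered a median of 10.8% of a window, beside 26.0%, and at least 50% of 155 windows (5.60%), beside 38.2%. GC content was similar, with a median of 51.4 and 49.6%.

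Short motifs were counted on both strands of the windows, with the share among the other distal windows beside each. The STAT motif TTCNNNGAA was in 427 windows (15.4%), beside 15.7% of the other distal windows and 13.9% of all windows. The E-box CAGCTG was in 31.7%, beside 24.8%, and the RUNX motif TGTGGT in 31.6%, beside 28.1%. The ETS motif CAGGAAG was in 26.1%, beside 22.0%, and the TCF/LEF motif CTTTGAT in 7.63%, beside 5.85%. Shares of the T-box motif GGTGTGA were 8.82 and 6.68%, those of the AP-1 motif TGAGTCA 8.38 and 6.4%, and those of the IRF motif 6.87 and 5.63%. The GC box GGGCGG was in 26.9%, beside 19.3% of the other distal windows but 32.4% of all windows, CGIs included. The letters AGATAA, read by GATA factors, and CAACTG, read by MYB factors, were each in 21.1% of the low-methylated windows, beside 21.7 and 20%. A match shows that the letters are present, not that a factor binds.

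With the 5S cluster set aside, Lhx5, Pax2 and Tbx3 were nearest to the largest numbers of low-methylated windows, followed by Bcl11b, Gse1 and Uncx and then Hoxc4. Lhx5 was nearest to 10 of its 18 distal windows, Pax2 to 10 of 24, Tbx3 to 10 of 39, Uncx to 9 of 20 and Hoxc4 to 8 of 8. Lhx5, Pax2, Tbx3, Uncx and Hoxc4 encode transcription factors that pattern tissues of the embryo. Foxf1, Foxl1, Gm26897, Irx3, Msx1, Nkx6-1, Rpl38 and Vrk1 were nearest to 7 each. Grouped after the values were seen, windows whose nearest start belonged to a Hox, Pax, Lhx, Nkx, Tbx, sine oculis homeobox, Irx, Dlx, Fox, Sox or Msx gene were 212 of 1106 distal windows (19.2%). Their mean level was 20.9 and 22.2% in the WT libraries, 21.5 and 22.0% in the hSTAT5B libraries and 21.9 and 23.2% in the hSTAT5B N642H libraries, which overlapped with the WT range.

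Bcl11b and Gse1, with 9 windows each, are described below. Among the lists of genes, 56 of the 530 distal windows within 20 kb of any listed gene were low-methylated (10.6%). The shares were 15 of 93 windows near T cell identity genes (16.1%), 10 of 68 near genes of non-hematopoietic tissues (14.7%), 4 of 34 near STAT5 targets (11.8%), 7 of 63 near B cell genes (11.1%), 2 of 19 near genes of costimulatory and inhibitory receptors, 5 of 51 near naive T cell genes (9.80%), 5 of 65 near CD8 effector and memory genes (7.69%), 3 of 39 near myeloid genes, 3 of 40 near JAK and STAT genes, 3 of 42 near genes of DNA methylation and Polycomb proteins, 1 of 19 near CD4 and helper T cell genes and 0 of 15 near NK cell genes. The windows with the most CpGs were an exonic window in Islr with 17, a window near Nrf1 with 15, and windows near Tbx3 and Dynlt1b with 14 each.

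The mean level of the 2767 windows was slightly higher in hSTAT5B N642H cells than in the other genotypes. It was 27.9 and 27.6% in the WT libraries, 27.7 and 27.6% in the hSTAT5B libraries and 29.0 and 29.6% in the hSTAT5B N642H libraries. The genotype means were 27.7% ± 0.161 for WT, 27.7% ± 0.113 for hSTAT5B and 29.3% ± 0.441 (SD, n = 2 each) for hSTAT5B N642H cells. Both hSTAT5B N642H libraries lay above the other 4. The difference was 1.57 percentage points from WT and 1.65 from hSTAT5B, and hSTAT5B differed from WT by -0.0864. With 2 libraries against 2, an exact permutation test cannot give a two-sided p below 0.333, and none is reported for these means.

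The rest of the distal windows differed in the other direction. Their mean level was 89.3 and 89.8% in the WT libraries, 89.8 and 89.7% in the hSTAT5B libraries and 88.6 and 88.9% in the hSTAT5B N642H libraries, a difference of -0.776 percentage points between hSTAT5B N642H and WT. Split by level, hSTAT5B N642H differed from WT by 0.464 percentage points in windows under 10%, by 1.57 in the low-methylated windows, by -1.06 in windows over 50 and up to 90% and by -0.719 in windows over 90%. The pooled level that sorts the windows includes the reads of both genotypes, so that the split is not independent of these differences. Its part in them was not tested. Within the low-methylated windows the difference was 1.51 to 1.70 percentage points in each of the 4 steps of level. The 1990 windows over 2 kb from any annotated start and any CGI had a mean difference of 1.47 percentage points, those within 2 kb of a CGI of 2.29, and those in the 5S cluster of 0.510. The 155 windows with 50% or more of their bases in repeats had a mean difference of -1.51, in the other direction. Windows with and without a STAT motif had mean differences of 0.971 and 1.67 percentage points.

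**Figure D2:**
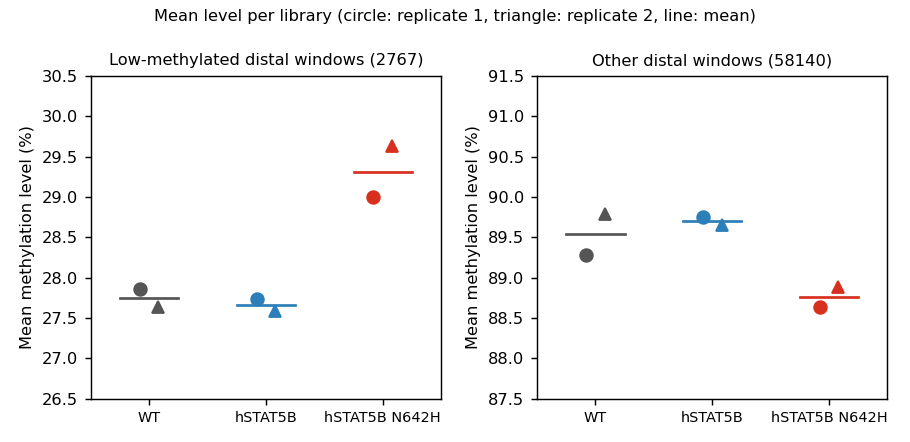
Mean methylation level (vertical axes, %, with separate ranges that do not start at 0) of the 2767 low-methylated distal windows (left) and the 58140 other distal windows (right) in each library, with lines at the genotype means. On the left the hSTAT5B N642H libraries, at 29.0 and 29.6%, lie above the other 4, and on the right, at 88.6 and 88.9%, below them.

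Single windows differed in both directions. Between hSTAT5B N642H and WT cells, 1620 windows were higher and 1147 lower. By at least 5 percentage points 952 were higher and 561 lower, beside 6.31 and 8.25% of all windows. Together these were 54.7% of the low-methylated windows, beside 14.6% of all windows. Between hSTAT5B and WT cells, where the mean difference was -0.0864, 611 were higher and 617 lower by as much (44.4%, beside 11.7%). Replicates of a genotype also differed more in the low-methylated windows. Their median difference was 4.96 to 5.91 percentage points, beside 2.04 to 2.15 in the other distal windows. The libraries of hSTAT5B N642H and WT did not overlap in 1334 low-methylated windows (48.2%), beside 37.8% of all 88453 windows. Those of hSTAT5B N642H were higher in 847 (30.6%, beside 14.7%) and lower in 487 (17.6%, beside 23.1%). Between hSTAT5B N642H and hSTAT5B cells, 1228 windows did not overlap (44.4%, beside 38.4%), with 780 higher (28.2%, beside 13.7%) and 448 lower (16.2%, beside 24.8%). Between hSTAT5B and WT cells, 1003 did not overlap (36.2%, beside 32.8%), with 525 higher (19%, beside 17.9%) and 478 lower (17.3%, beside 14.9%). The 3 comparisons share libraries and are not independent.

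No window reached an adjusted p of 0.05 in limma, which was run on the log2 ratio between the methylated and the unmethylated reads of a window, with Benjamini-Hochberg adjustment over all 88453 windows, in any of the 3 comparisons (0% of windows). The smallest adjusted p of a low-methylated window was 0.674 between hSTAT5B N642H and WT, 0.760 between hSTAT5B and WT, and 0.661 between hSTAT5B N642H and hSTAT5B. At an unadjusted p under 0.05 limma counted 277 low-methylated windows (10%, beside 7% of all windows), 174 of them higher, between hSTAT5B N642H and WT. It counted 182 (6.58%, beside 7.19%) between hSTAT5B N642H and hSTAT5B and 108 (3.90%, beside 6.25%) between hSTAT5B and WT.

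A quasi-binomial model of the reads, which weights each window by its depth, called 48 low-methylated windows between hSTAT5B N642H and WT (1.73%, beside 0.24% of all windows), 28 of them higher (beside 0.145% of all windows) and 20 lower (beside 0.095%). Between hSTAT5B N642H and hSTAT5B it called 5 (beside 0.0328% of all windows). Of these, 3 were higher, in Rgs6, Abca17 and near Itga1 (beside 0.0113%), and 2 lower, in Bcl11b and Rnf138 (beside 0.0215%). It called 0 between hSTAT5B and WT, where 301 low-methylated windows had an unadjusted p under 0.05 (10.9%, beside 5.93% of all windows). These calls rest on every library. When any 1 library of the compared genotypes was left out, the model called 0 low-methylated windows in each comparison, and between hSTAT5B N642H and WT 452 to 549 had an unadjusted p under 0.05, beside 657 with all libraries (23.7%, beside 9.42% of all windows). Between hSTAT5B N642H and hSTAT5B, 531 had an unadjusted p under 0.05 (19.2%, beside 9.56% of all windows). The p-values of this model, adjusted over all windows, are given below as q, and a difference with a q is not a call of limma.

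**Figure D3:**
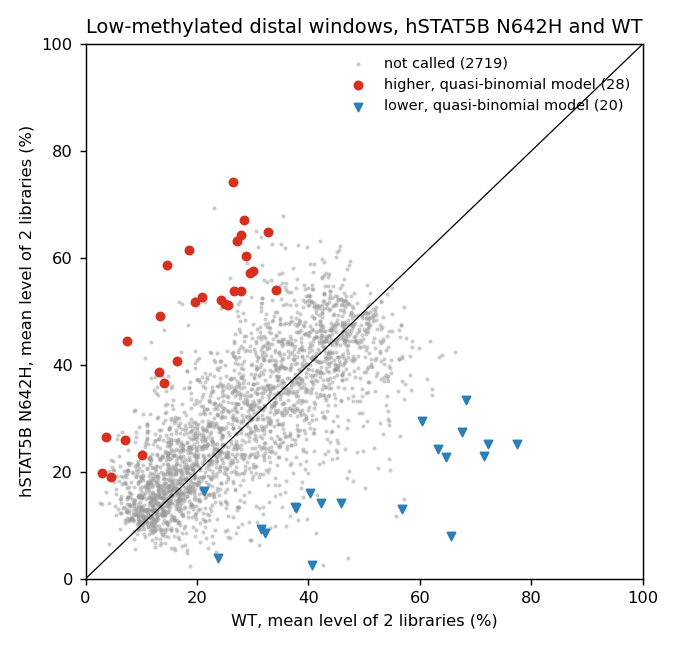
Mean methylation level of each low-methylated window in the WT libraries (horizontal axis, %) and the hSTAT5B N642H libraries (vertical axis, %), with the line of equality. Red circles are the 28 windows that the quasi-binomial model called higher in hSTAT5B N642H cells, blue triangles the 20 it called lower, and gray points the windows that were not called.

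The 28 windows with higher levels went from low to intermediate levels. Over them the libraries averaged 21.6 and 18.5% in WT, 27.2 and 26.9% in hSTAT5B and 49.4 and 48.7% in hSTAT5B N642H cells. The 20 with lower levels averaged 51.7 and 50.4% in WT, 37.9 and 40.6% in hSTAT5B and 15.2 and 19.2% in hSTAT5B N642H cells. These windows were chosen by the difference between WT and hSTAT5B N642H, and the averages of those genotypes are a description. The hSTAT5B averages are also a description, as their reads entered the pooled level of the rule and the spread of the model. Choosing windows where WT and hSTAT5B N642H lie far apart favors a middle place for hSTAT5B, which was not tested.

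Among windows with at least 100 reads in every library, the largest differences toward higher levels in hSTAT5B N642H than WT were near Zbtb10, in Rgs6, near Pik3c3 and near Impg1. The window 76.1 kb from the start of Zbtb10, a zinc finger gene, and outside annotated genes (chr3:9174001-9174500), had levels of 17.1 and 20.1% in WT, 36.4 and 34.4% in hSTAT5B and 54.6 and 68.6% in hSTAT5B N642H cells. The log2 difference was 2.81 ± 0.47 (SE), with a q of 0.0061 in the quasi-binomial model and an adjusted p of 0.674 in limma. Its first 3 CpGs averaged 15.0, 13.9 and 19.3% in WT and 62.7, 64.5 and 67.2% in hSTAT5B N642H cells, while the last differed less, at 31.2 and 43.6%.

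The window in an intron of Rgs6 (chr12:83004001-83004500), a regulator of G protein signaling, was at 27.6 and 29.2% in WT, 23.0 and 29.1% in hSTAT5B and 64.2 and 70.2% in hSTAT5B N642H cells. The hSTAT5B libraries lay within or below the WT range, and the window differed from both genotypes, with a q of 0.016 against WT and 0.025 against hSTAT5B. Its 3 CpGs averaged 28.1, 24.4 and 43.3% in WT and 74.1, 58.7 and 64.5% in hSTAT5B N642H cells.

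Near Impg1, 223 kb from the start and outside annotated genes (chr9:80688001-80688500), the levels were 35.5 and 20.2% in WT, 31.5 and 24.3% in hSTAT5B and 62.0 and 66.5% in hSTAT5B N642H cells, with a q of 0.019. Its first CpG was highly methylated in every genotype, at 84.2% in WT and 95.8% in hSTAT5B N642H cells, and the other 3 carried the difference, at 16.0 to 32.9% and 56.8 to 66.0%. Pik3c3 encodes a lipid kinase of autophagy. A window of 13 CpGs, 4.25 kb from its start (chr18:30268001-30268500) was at 13.6 and 1.41% in WT, 7.76 and 1.41% in hSTAT5B and 54.9 and 33.9% in hSTAT5B N642H cells (q = 0.026), with a wide gap between the hSTAT5B N642H replicates.

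The largest differences toward lower levels, again among windows with at least 100 reads in every library, were in Rnf138, Chd7, Ddx39 and Oplah. An exonic window of Rnf138 (chr18:21008501-21009000), a ubiquitin ligase gene, had levels of 81.1 and 73.8% in WT, 56.5 and 63.6% in hSTAT5B and 26.3 and 24.1% in hSTAT5B N642H cells. The log2 difference was -3.33 ± 0.45 (SE) from WT, with a q of 0.0026 against WT and 0.028 against hSTAT5B. The 3 genotypes did not overlap.

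In an intron of Chd7 (chr4:8834501-8835000), which encodes a chromatin remodeler, the levels were 67.4 and 75.5% in WT, 62.8 and 50.8% in hSTAT5B and 14.4 and 31.4% in hSTAT5B N642H cells (q = 0.020). All 3 of its CpGs were lower, averaging 65.2 to 75.2% in WT and 21.3 to 24.4% in hSTAT5B N642H cells. An exonic window of Ddx39 (chr8:83721501-83722000), a helicase gene, was at 72.0 and 57.5% in WT, 72.4 and 53.2% in hSTAT5B and 22.6 and 23.0% in hSTAT5B N642H cells (q = 0.030), so that WT and hSTAT5B had like ranges. In Oplah, which encodes an enzyme of glutathione metabolism, a window of which 60.4% is repeat (chr15:76313001-76313500) was at 71.3 and 55.0% in WT, 48.5 and 55.0% in hSTAT5B and 21.5 and 26.9% in hSTAT5B N642H cells (q = 0.026).

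**Figure D4:**
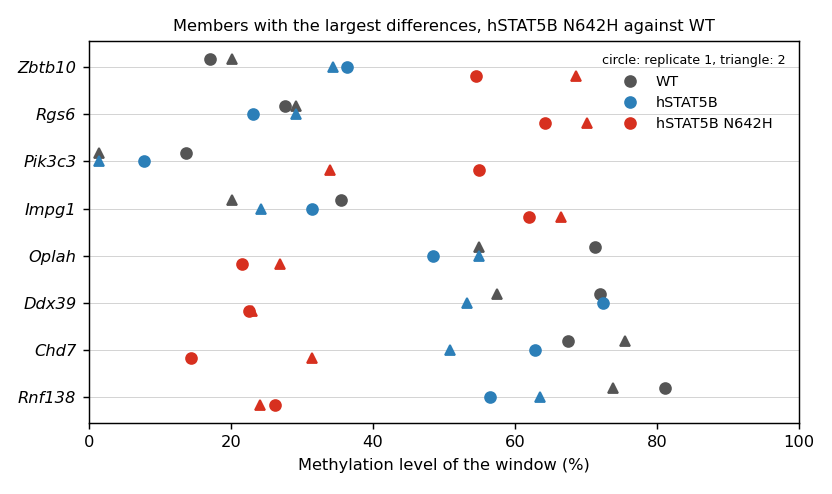
Methylation level (horizontal axis, %) in each library for 8 low-methylated windows, with circles for replicate 1 and triangles for replicate 2. Windows are named by the gene that holds them or the nearest one. They had the largest differences between hSTAT5B N642H and WT in each direction. Only windows with at least 100 reads in every library and no overlap of these genotypes were considered. At Zbtb10 the hSTAT5B libraries, at 36.4 and 34.4%, sit between WT and hSTAT5B N642H, and at Rgs6 and Ddx39 they sit with WT.

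Against hSTAT5B, the largest differences in each direction were taken among windows with at least 100 reads in every library and no overlap of genotypes. Of these 8 windows, 7 were already described, and the other was in an intron of Abca17, a transporter gene (chr17:24344501-24345000). It was at 31.9 and 7.49% in WT, 4.12 and 3.12% in hSTAT5B and 59.4 and 45.8% in hSTAT5B N642H cells, with a q of 0.039 against hSTAT5B and 0.131 against WT. Its WT replicates differed more than those of the other genotypes.

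Between hSTAT5B and WT neither model called a window. The largest differences in each direction, 8 in all, are given as values. They were taken among windows with at least 100 reads in every library and no overlap of genotypes. An intronic window of Rapgef2, a guanine nucleotide exchange factor gene, was at 69.4 and 55.0% in WT and 30.2 and 40.9% in hSTAT5B cells, and the window 111 kb from the start of Rreb1 was at 35.9 and 30.8% in WT and 49.5 and 56.5% in hSTAT5B cells. An intron of Apbb2 held a window at 75.0 and 61.6% in WT and 39.1 and 49.2% in hSTAT5B cells. The quasi-binomial model called this window lower in hSTAT5B N642H than in WT cells, with hSTAT5B N642H at 30.6 and 36.3% (q = 0.041). At 3 more of the 8, near Ccdc54, in Rasa4 and in Hook3, the mean levels differed by -25.3, -23.5 and 17.8 percentage points. Near Ccdc54 the WT replicates, at 67.3 and 38.7%, differed by more than the genotypes did, and hSTAT5B was at 22.9 and 32.4%. In Bik the levels were 17.2 and 36.5% in WT and 39.1 and 58.6% in hSTAT5B cells, and near Zfp184 20.8 and 41.6% in WT and 51.4 and 45.8% in hSTAT5B cells, so that the WT replicates differed about as much as the genotypes.

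Bcl11b, which encodes a transcription factor that establishes and maintains T cell identity, held 8 low-methylated windows among its 12 distal windows, and another lay 2.90 kb upstream of its start. The means over the 8 windows in the gene were 32.3 and 23.9% in WT, 26.2 and 20.5% in hSTAT5B and 9.32 and 12.6% in hSTAT5B N642H cells. All 8 were lower in hSTAT5B N642H than in WT cells, by a mean of 17.2 percentage points, and in 6 the libraries did not overlap, beside 23.1% of all windows that were lower without overlap. Without WT replicate 1 the mean difference was -13 percentage points, and 7 of 8 were lower.

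The quasi-binomial model called 2 of the 8. At chr12:107928501-107929000 the levels were 30.7 and 32.4% in WT, 37.2 and 35.3% in hSTAT5B and 5.60 and 12.9% in hSTAT5B N642H cells, with a q of 0.034 against WT and 0.043 against hSTAT5B. At chr12:107975501-107976000, the window whose sequence is given above, they were 44.7 and 30.8% in WT, 26.1 and 26.2% in hSTAT5B and 9.93 and 16.6% in hSTAT5B N642H cells (q = 0.039 against WT). A window 11.9 kb into the gene was at 43.8 and 35.7% in WT, 23.5 and 10.3% in hSTAT5B and 7.73 and 14.5% in hSTAT5B N642H cells, where the hSTAT5B libraries were also below WT.

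The pattern was not uniform along the gene. At 51.9 kb the mean levels differed by -2.84 percentage points and at 26.4 kb by -0.312. The window upstream of the start went the other way, at 9.45 and 8.37% in WT, 23.6 and 22.2% in hSTAT5B and 18.9 and 23.2% in hSTAT5B N642H cells.

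**Figure D5:**
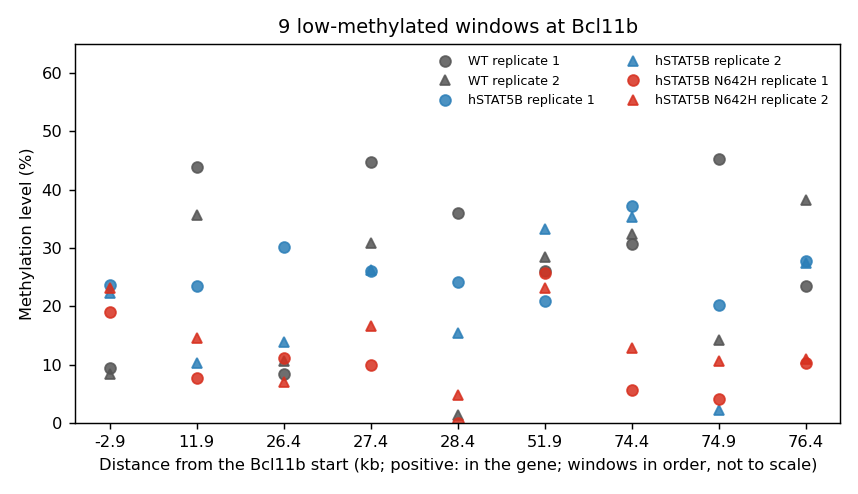
Methylation level (vertical axis, %) in each library of the 9 low-methylated windows at Bcl11b, in order of their distance from the transcription start (horizontal axis, kb, not to scale, positive within the gene). The hSTAT5B N642H libraries, in red, lie below all WT libraries, in gray, in 6 of the 8 windows in the gene, and above them in the upstream window at -2.9 kb.

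Over all 15 windows near T cell identity genes, the library means were 32.6 and 23.9% in WT, 23.7 and 21.1% in hSTAT5B and 16.3 and 17.8% in hSTAT5B N642H cells. Of the 15, 11 were lower and 4 higher in hSTAT5B N642H than in WT cells, the libraries did not overlap in 8 lower and 2 higher windows (beside 23.1 and 14.7% of all windows), and the median difference was -16.3 percentage points, beside 1.67 over all low-methylated windows. Without WT replicate 1 it was -6.84. As 9 of the 15 belong to Bcl11b, they share a locus. The median is the value of the Bcl11b window at 28.4 kb, where the WT libraries were at 36.0 and 1.33%. The windows outside Bcl11b had no common direction. Differences were -40.0 percentage points in Lef1, -16.3 near Tcf7 and -6.25 in Cd2. They were 13.1 and 1.41 in Cd247, and 4.63 near Eif3i within 20 kb of Lck. The 5 windows near naive T cell genes, 2 of which are also in the former list, had a median difference of -16.3 percentage points, and -7.13 without WT replicate 1.

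In Lef1, which encodes a transcription factor of naive T cells, an intronic window had a wide gap between the WT replicates, at 66.7 and 18.6%, and was at 7.41 and 5.56% in hSTAT5B and 3.03 and 2.22% in hSTAT5B N642H cells. Foxp1, a factor linked to T cell quiescence, had a window 2.06 kb from its start at 34.9 and 45.7% in WT, 22.2 and 28.9% in hSTAT5B and 13.5 and 18.5% in hSTAT5B N642H cells (q = 0.038 against WT). Near Tcf7, which encodes a related factor, the levels were 34.6 and 16.2% in WT, 17.5 and 3.92% in hSTAT5B and 18.2 and 0% in hSTAT5B N642H cells, and the libraries of the genotypes overlapped.

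Cd247 had the opposite direction. Its intronic window of 8 CpGs (chr1:165841001-165841500) was at 9.02 and 11.1% in WT, 12.8 and 8.98% in hSTAT5B and 23.3 and 23.0% in hSTAT5B N642H cells (q = 0.034 against WT). The CpGs of this window differed unevenly. The first averaged 5.45% in WT and 34.0% in hSTAT5B N642H cells, and the seventh 7.74 and 5.75%. A second low-methylated window in the gene was at 36.6 and 21.9% in WT, 7.50 and 21.6% in hSTAT5B and 29.5 and 31.8% in hSTAT5B N642H cells. At Cd2, an adhesion molecule of T cells, all 6 libraries lay between 45.5 and 56.8%.

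The STAT5 target list, 17 genes that are induced by STAT5 in lymphocytes, had 4 low-methylated windows nearby. The window next to Castor1 and within 20 kb of Osm (chr11:4223501-4224000) was at 71.6 and 72.8% in WT, 61.0 and 68.2% in hSTAT5B and 22.2 and 28.1% in hSTAT5B N642H cells, with a log2 difference of -2.90 ± 0.44 (SE) and a q of 0.012 against WT. Its 3 CpGs averaged 42.1, 74.5 and 92.9% in WT and 8.63, 14.8 and 56.3% in hSTAT5B N642H cells. At Pim1, which encodes a survival kinase, the libraries lay between 24.1 and 34.1%. In an exon of Adamtsl4, within 20 kb of Mcl1, which encodes an antiapoptotic protein, they lay between 25.6 and 45.2%. At Socs2, which encodes a feedback inhibitor of cytokine signaling, they were at 41.4 and 34.5% in WT, 22.8 and 60.3% in hSTAT5B and 40 and 40.8% in hSTAT5B N642H cells. The libraries of WT and hSTAT5B N642H did not overlap in 3 of the 4, all lower in hSTAT5B N642H cells, beside 23.1% of all windows.

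Near genes of JAK and STAT proteins, an intronic window of Stat3 was at 41.0 and 24.4% in WT, 46.4 and 47.2% in hSTAT5B and 66.4 and 63.5% in hSTAT5B N642H cells (q = 0.027 against WT). A window 12.5 kb from the Stat3 start differed by 4.45 percentage points and a window in Stat5a by -5.07. None of these windows lay in Stat5b.

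The 5 windows near CD8 effector and memory genes had a median difference of 6.4 percentage points between hSTAT5B N642H and WT, with 4 higher and 1 lower, and of 4.73 without WT replicate 1. The window 9.21 kb from the start of Eomes, which encodes a transcription factor of effector and memory CD8+ T cells, was at 30.5 and 37.8% in WT, 36.3 and 29.4% in hSTAT5B and 46.5 and 44.1% in hSTAT5B N642H cells, and was not called. At Tbx21, the related factor T-bet, the libraries lay between 41.3 and 53.7%. A window nearest to Tnfrsf18 lay within 20 kb of Tnfrsf4, a costimulatory receptor gene. It was at 45.3 and 43.1% in WT, 32.8 and 34.6% in hSTAT5B and 24.2 and 20.7% in hSTAT5B N642H cells. At Havcr2, which encodes the inhibitory receptor TIM-3, the libraries lay between 16.5 and 28.4%.

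Lists of other cell types and of other processes had smaller median differences or few windows. The 7 windows near Pax5 and Ebf1, transcription factor genes of B cells, had a median difference of 2.11 percentage points, and the quasi-binomial model called 0 of them. The 10 windows near genes of non-hematopoietic tissues, among them Foxa2, Sox2, Pax6, Neurod1, Nkx2-1 and Tbx5, had a median difference of -1.16, with 0 called. Near myeloid genes, a window next to Fcgr3 ranged from 15.7 to 85% within the hSTAT5B pair, and the 3 windows had a median difference of 2.58. At Cxcr5, a receptor gene of follicular helper T cells and B cells, the levels were 28.0 and 23.8% in WT, 26.1 and 31.5% in hSTAT5B and 32.6 and 42.2% in hSTAT5B N642H cells. Tet1, which encodes an enzyme of DNA demethylation, held windows with differences in opposite directions, neither of which was called. The one 2.82 kb from its start was at 14.5 and 7.46% in WT, 22.1 and 26.9% in hSTAT5B and 24.3 and 28.3% in hSTAT5B N642H cells. The one 14 kb from its start was at 36.6 and 36.6% in WT, 39.2 and 24.8% in hSTAT5B and 30.1 and 31% in hSTAT5B N642H cells. With these, the 3 windows near genes of DNA methylation and Polycomb proteins had a median difference of -6.04 percentage points.

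Gse1, which encodes a protein of a chromatin corepressor complex, was the counterpart of Bcl11b among genes with many low-methylated windows. Its 9 windows averaged 25.5 and 22.4% in WT, 27.8 and 29.1% in hSTAT5B and 35.5 and 37.5% in hSTAT5B N642H cells, a difference of 12.5 percentage points from WT. Of the 9, 8 were higher in hSTAT5B N642H cells with libraries that did not overlap, beside 14.7% of all windows. The window 2.57 kb from the start was called by the quasi-binomial model, at 13 and 13.8% in WT, 26.3 and 29.0% in hSTAT5B and 45.6 and 52.6% in hSTAT5B N642H cells (q = 0.035). Bcl11b and Gse1 were singled out after their values were seen.

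Further windows called by the quasi-binomial model between hSTAT5B N642H and WT were also named after their values were seen. Higher levels were found in an intron of Pou2f2, a lymphoid transcription factor gene, at 13.4 and 12.9% in WT, 15.0 and 20.2% in hSTAT5B and 40.5 and 37.0% in hSTAT5B N642H cells (q = 0.012). The window 109 kb from the start of Itga1, an integrin gene, was at 30.9 and 26.8% in WT, 34.6 and 35.7% in hSTAT5B and 57.4 and 63.4% in hSTAT5B N642H cells (q = 0.0085 against WT and 0.033 against hSTAT5B). At Itpr1, a calcium channel gene, the levels were 25 and 26.1%, 24.3 and 28.2%, and 51.0 and 51.4% in the 3 genotypes in the same order (q = 0.023). An intron of Nfic, a transcription factor gene, stepped from 25.9 and 27.1% over 43.9 and 51.1% to 73.6 and 74.7% (q = 0.015).

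Lower levels were found at Hopx, a transcriptional regulator gene, at 60.7 and 60% in WT, 52.5 and 47.5% in hSTAT5B and 30.5 and 28.4% in hSTAT5B N642H cells (q = 0.016), and at Grap2, an adaptor gene of T cell receptor signaling, at 51.0 and 40.5%, 30.8 and 38.4%, and 15.9 and 12.3% (q = 0.023). In an exon of Elovl5, a fatty acid elongase gene, WT was at 45.9 and 85.2%, hSTAT5B at 54.1 and 72.7% and hSTAT5B N642H at 6.12 and 10% (q = 0.041), the largest difference of means among the named windows, in a window with as few as 37 reads in a library. By contrast, a window 451 kb from the start of Epha6, of which 66.8% is repeat, was called on a difference of -4.83 percentage points (q = 0.038), with 2371 to 5904 reads per library, and was at 20.6 and 22.1% in WT, 20.1 and 20.4% in hSTAT5B and 15.5 and 17.6% in hSTAT5B N642H cells. In all these windows limma gave an adjusted p of 0.674 or more between hSTAT5B N642H and WT.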

How the data were processed

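DNA methylation was measured by RRBS in 6 libraries, 2 per genotype. Per the methods and the submitters' processing notes, the authors used Trimmomatic to trim adapters, mapped reads to GRCm38 (mm10) with BSMAP in its RRBS mode, and took CpG methylation from custom Python scripts. The deposited files hold, at each CpG, a count of all reads and a count of the methylated ones, without normalization. They also hold a score from the authors, the methylated share on a scale up to 1000, which served as a check of the counts alone and matched them at 100% of CpGs. The reads carry no molecular identifiers, so that depth covers counting error only. The minimum depth the authors used per CpG is not given in the sources used here.

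Reads were summed over CpGs with 10 or more reads in every library, in 500-bp windows that held 3 or more such CpGs, and the level is the methylated percent of the summed reads. For CGIs the UCSC definition was applied to GRCm38 (longer than 200 bp, GC above 50%, observed to expected CpG above 0.6). Genes are from GENCODE M21. The main test was limma on log2((methylated + 1)/(unmethylated + 1)), fitted over all 6 libraries and all 88453 windows, with Benjamini-Hochberg adjustment. The alternative was a quasi-binomial model with dispersions moderated across windows. Both were tested on simulated data. Other offsets, a mean-variance trend, percent levels, other minimums of reads and CpGs, an unweighted mean over CpGs, a replicate block and leaving out each library were tried. The report gives the depth of the libraries.

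The windows named are the 4 with the largest higher and the 4 with the largest lower level per comparison, among those with at least 100 reads in every library and genotypes that do not overlap, the window with the most reads within 20 kb of a gene of each list (4 for T cell identity and STAT5 targets), those with the most CpGs and those next to each limit. All windows called by the quasi-binomial model, those at Bcl11b and Gse1, and the other windows of the lists were named after their values were seen. A window is named by the protein-coding gene that holds it or else the nearest one. The windows and the gene lists were chosen with earlier results of these data known. Sex chromosomes were left out.

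Python 3.11.15 with numpy 2.4.6, pandas 2.3.3, scipy 1.17.1, numba 0.67.0 and matplotlib 3.10.9, and R 4.3.3 with limma 3.58.1 were used.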

Additional observations from a re-analysis of the deposited data

How the results depend on the processing

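The rule set how many windows were described. There were 4372 low-methylated windows with a minimum of 5 reads per CpG, 1176 with 20 reads and 826 with at least 5 CpGs, beside 2767. Near listed genes there were 128 within 100 kb, beside 56 within 20 kb. The counts of windows with libraries that do not overlap moved with these numbers, to 2055, 570 and 415 between hSTAT5B N642H and WT, to 1557, 433 and 301 between hSTAT5B and WT, and to 1902, 530 and 372 between hSTAT5B N642H and hSTAT5B. Without 1 library, when 1 library stands against 2, they were 1974 to 2143, 1844 to 1918 and 1910 to 2095.

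Windows called by the quasi-binomial model were 48 between hSTAT5B N642H and WT and 5 between hSTAT5B N642H and hSTAT5B, and 0 under limma and under each of its alternatives. With the replicate block limma also called 0 windows in each comparison. The replicate differences of 2 genotypes were correlated over the low-methylated windows by -0.0152, -0.0115 and 0.0392. Counting error is a part of these differences, and whether replicate numbers pair the libraries was not tested further.

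The mean difference between hSTAT5B N642H and WT kept its direction, at 2.05 percentage points with at least 5 CpGs and 1.25 to 1.88 without 1 library, and that from hSTAT5B was 1.34 to 1.96 without 1 library. Between hSTAT5B and WT it was 0.576 with at least 5 CpGs, beside -0.0864. Of 649 alternative values for 97 named windows and comparisons, 622 stayed within the replicate spread and 26 moved further. With 2 libraries per genotype, leaving out 1 cannot move a difference beyond this spread. Nor can it reverse a difference where the libraries do not overlap. Those values were therefore counted as unmoved in advance, and only the other alternatives could add to the moved or reversed values. A reversal was counted where the libraries of the compared genotypes do not overlap, and 1 was found, the Bcl11b window at 51.9 kb, to 0.172 under an unweighted mean over CpGs. In 5 windows whose libraries overlap, the difference between hSTAT5B N642H and WT also changed sign when 1 library was left out. Without WT replicate 1 those at Bcl11b (28.4 kb), Zfp184 and Ccdc54 came to 1.05, -3.66 and 5.47 percentage points, without WT replicate 2 that at Socs2 came to -0.971, and without hSTAT5B N642H replicate 2 that at Bcl11b (26.4 kb) came to 1.75.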

Other observations

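The windows below, which the quasi-binomial model also called between hSTAT5B N642H and WT cells, were chosen after their values were seen and are given as values. Near Bcl2l11, which encodes the proapoptotic protein BIM, a window 213 kb from the start was at 5.60 and 8.44% in WT, 9.13 and 11.8% in hSTAT5B and 25.2 and 26.8% in hSTAT5B N642H cells. An exonic window of Meis1, a homeobox gene of blood stem cells, was at 30.6 and 18.1% in WT, 32.1 and 29.1% in hSTAT5B and 59.9 and 44.5% in hSTAT5B N642H cells. In an exon of Stk39, a kinase gene, the levels were 31.6 and 22.9% in WT, 45.6 and 40% in hSTAT5B and 69.5 and 56.8% in hSTAT5B N642H cells. At Hnrnpf, an RNA-binding protein gene, a window 8.32 kb from the start was at 21.7 and 20% in WT, 21.6 and 17.5% in hSTAT5B and 54.0 and 51.4% in hSTAT5B N642H cells, with WT and hSTAT5B alike in range.

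Lower levels in hSTAT5B N642H cells were found in an exon of Plxdc1, at 27.6 and 53.7% in WT, 14.3 and 18.1% in hSTAT5B and 1.14 and 4% in hSTAT5B N642H cells, and in an intron of Kbtbd11, at 70.1 and 43.5% in WT, 38.3 and 48.2% in hSTAT5B and 11.7 and 14.4% in hSTAT5B N642H cells. An exonic window of Drc1 was at 23.5 and 24.0% in WT, 9.80 and 13.3% in hSTAT5B and 5.63 and 2.32% in hSTAT5B N642H cells. In each of these windows the libraries of hSTAT5B N642H and WT did not overlap, by which they were also chosen, and limma called none.

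The other windows that the quasi-binomial model called between these genotypes were higher in hSTAT5B N642H cells at Rfx8, Itpka, Cdh22, Ptpn3, Shroom3, Bcl7a, Atoh8, Atf7ip, Gm20388, Elmsan1, Rin3, Meltf and Twsg1, by 14.4 percentage points at Cdh22 to 44.1 at Gm20388, and lower at Nav1, Klf14, Cacna2d4 and Sox6, with differences of -40.03 percentage points at Nav1 to -23.7 at Klf14.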
